A study of Mus musculus with 25 samples.

Results

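Of 96405 distinct DNA fragments that split DamID marked in mK4 cells, 352 were held by both complexes that contain p300, N1/p300 and Mef2c/p300, and by none of the 4 other complexes mapped in the study. They were chosen by presence in the deposited lists alone: the same chromosome, start and end in both p300 lists, and no entry in the lists of N1 with RBP, N1 with MAML, N1 with N1 and Mef2c with MAML, on the 19 autosomes and the X chromosome. They made up 1.57% of the 22358 N1/p300 fragments and 1.22% of the 28757 Mef2c/p300 fragments. Of the 352, 23 lay in 1 interval of chromosome 15 (mm9, 81410000 to 81490000) and 329 elsewhere, and the main shares are given with and without that interval.

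The cells were mK4, a mouse line from embryonic kidney mesenchyme. In split DamID (SpDamID), 2 inactive parts of the bacterial adenine methylase Dam are fused to a pair of proteins, here labelled D (on N1 or Mef2c) and AM-Ert2 (on the partner), and GATC sites are methylated where the pair meets. The labels list 3 libraries of the Dam control, 3 of N1-D/p300-AM-Ert2, 1 of Mef2c-D/p300-AM-Ert2, 3 each of N1-D/RBP-AM-Ert2 and N1-D/MAML-AM-Ert2, 2 of N1-D/N1-AM-Ert2 and 1 of Mef2c-D/MAML-AM-Ert2. They also list 3 control and 3 N1wt libraries of FAIRE, which recovers open chromatin, with 1 input, and 1 N1 ChIP library through a myc tag with 1 input. Dose and time of any ligand for the Ert2 domain are not given in the labels, and 1 N1/N1 library and the Mef2c/MAML library carry the strain labels CD2 and CD3 where the rest carry CD1. Every list pools the libraries of its group, so there is no value per library, no replicate error and no known depth. Absence from a list means a fragment did not reach the authors' confidence level of at least 0.999 over Dam, not that the complex was absent. The lists share the same Dam control libraries. Expression was not measured, so the labelled cell type could not be checked against its markers.

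p300 is a large acetyltransferase that binds many transcription factors and acetylates histones at enhancers and promoters. N1, the Notch1 receptor, releases an intracellular part on activation, which joins the DNA-binding protein RBP and the co-activator MAML, and MAML in turn recruits p300. Mef2c, a MADS-box transcription factor best known in muscle and neural crest, also works with p300 and can bind MAML.

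Such fragments were a small minority of the sites at which both p300 complexes were called. The 2 lists had 7017 fragments in common, and 352 of these (5.02%) were in no other list, whereas 2904 (41.4%) were also in all 4 other lists. In between, 730 were in exactly 1 other list, 1267 in 2 and 1764 in 3. Of the 730 fragments that missed by a single list, 464 were also in Mef2c/MAML, 178 in N1/N1, 82 in N1/RBP and 6 in N1/MAML. These 4 lists hold 50380, 31936, 28281 and 16545 fragments in all, which is the same order. From the side of each list, the 352 were 7.88% of the 4468 N1/p300 fragments that lay outside the 4 other lists, and 2.9% of the 12134 such Mef2c/p300 fragments.

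The deposited score of the complex over Dam, a whole number of unstated scale, served to choose the members through its presence and is given as a description without a test. Among all 352 the N1/p300 score ran from 2 to 870 with a median of 263, and the Mef2c/p300 score from 3 to 849 with a median of 301. The medians of the full lists were 342 and 286. Of the members, 132 (37.5%) reached the median of the N1/p300 list and 189 (53.7%) that of the Mef2c/p300 list. Fragments in N1/p300 alone reached the first median in 24.3% of cases, and those in Mef2c/p300 alone the second in 39.8%. Scores of at most 50 were found in 36 members for N1/p300 (10.2%, beside 6.38% of the whole list). For Mef2c/p300 they were found in 32 members (9.09%), near the 9.33% of the whole list.

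Members reached down to low scores in both lists, whose own lowest scores are 1 for N1/p300 and 2 for Mef2c/p300. The lowest members were on chromosome 3 from 138925792 to 138926699, with an N1/p300 score of 2 and a Mef2c/p300 score of 590, and on chromosome 5 from 142996579 to 142997520, with 2 and 163. For Mef2c/p300, 13 members shared the lowest score of 3, among them chromosome 2 from 167750626 to 167751247, whose N1/p300 score was 518. Just outside were fragments kept out by a score of 4 in Mef2c/MAML. One lay on chromosome 5 from 144206211 to 144206931, with an N1/p300 score of 365 and a Mef2c/p300 score of 672. Another lay on chromosome 9 from 24707894 to 24708656, with 435 and 35.

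**Figure D1:**
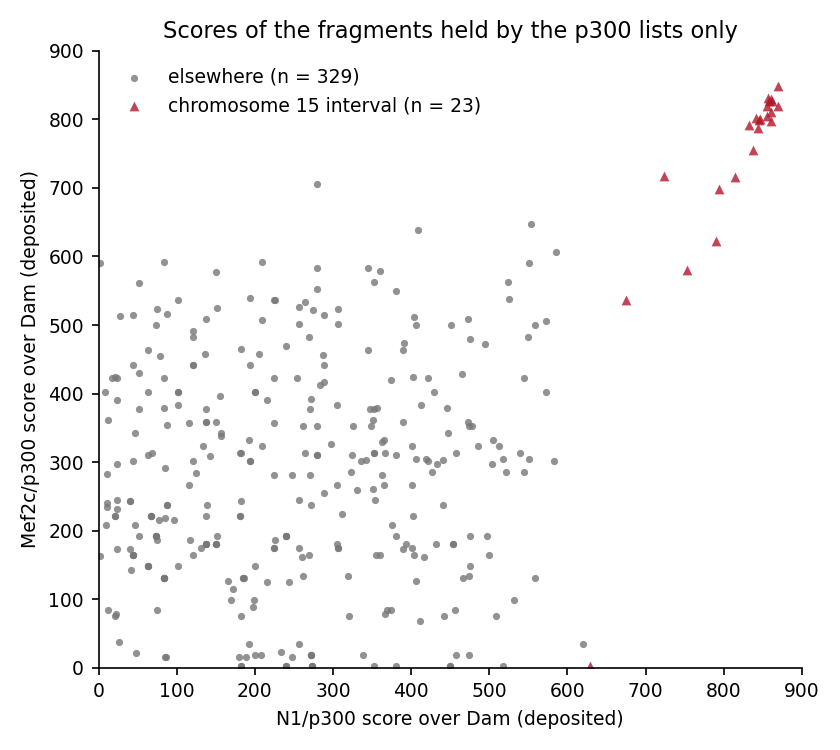
Each point is 1 of the 352 fragments, with its deposited N1/p300 score (horizontal axis) and Mef2c/p300 score (vertical axis); red triangles are the 23 fragments of the chromosome 15 interval and grey points the 329 elsewhere. All triangles have an N1/p300 score of 629 or more, the other points reach 620, and 1 triangle lies at the bottom with a Mef2c/p300 score of 3.

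The strongest members formed a single stretch of chromosome 15. The 23 members there ran from 81430389 to 81482435, a span of 52.0 kb of which they covered 22.2 kb (42.6%), and every one of the 10 highest scores of the N1/p300 list belonged to them, as did 7 of the 10 highest Mef2c/p300 scores. Their N1/p300 scores had a median of 845, with 629 as the lowest and 870 as the highest. Their Mef2c/p300 scores had a median of 799, from 3 to 849. Outside the stretch the highest scores of members were 620 and 706, so the N1/p300 scores of members inside and outside did not overlap. This holds for members only. Of the 100 highest scores in the whole N1/p300 list, 21 lay in the stretch, so fragments elsewhere that are not members also scored in its range. From general knowledge of the mouse genome, the interval holds Ep300, the gene of p300 itself; no annotation of build mm9 was used here. Cells of both p300 groups carried an introduced p300 fusion, and the labels name none in the cells of the 4 other groups. The lists do not separate the chromosomal gene from the introduced sequence, and the part of the latter in these scores was not tested.

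The first fragment of the stretch, from 81430389 to 81432018, had the highest scores of all members, 870 for N1/p300 and 849 for Mef2c/p300. After a gap it was followed at 81438417 to 81440262 by scores of 861 and 829, and at 81443443 to 81444189 by 858 and 827. Many members abutted one another: 11 of the 23 lay in runs without a gap. The longest run held 4 fragments, from 81457383 to 81461233, with N1/p300 scores of 860, 856, 844 and 815 and Mef2c/p300 scores of 811, 805, 788 and 716. A run of 3 fragments, from 81469738 to 81471088, scored 862, 857 and 845 for N1/p300 and 826, 831 and 799 for Mef2c/p300. The last run, from 81478981 to 81482435, scored 860 and 869 against 798 and 819. The remaining run, from 81446223 to 81447266, was weaker, with 753 and 724 for N1/p300 and 580 and 718 for Mef2c/p300. The longest gap between neighbouring members was 6.4 kb.

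Some fragments of the stretch scored lower or were in 1 p300 list alone. The member from 81464041 to 81465915 had an N1/p300 score of 675 and a Mef2c/p300 score of 536. At 81451532 to 81452179 the N1/p300 score was 629 and the Mef2c/p300 score 3. Those in 1 p300 list alone were 81440476 to 81440870, with an N1/p300 score of 266, and 81434264 to 81434863 and 81461455 to 81462075, with Mef2c/p300 scores of 377 and 441. Between the first and the last member, 0 fragments were in any of the 4 other lists. The N1/p300 score exceeded the Mef2c/p300 score in 23 of 23 members here and in 141 of 329 elsewhere; since the scale is not given, this compares numbers of 2 lists and not amounts of methylation.

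Fragments of the other lists flanked the stretch. On the far side, 81489602 to 81489963 was in Mef2c/MAML alone with a score of 197, 7166 bp after the last member. On the near side, 81418309 to 81419606 was in N1/N1 alone with a score of 117, 10782 bp before the first member, and 81417647 to 81418139 was in all lists but Mef2c/p300. The fragment from 81416800 to 81417363, which ends 13025 bp before the first member, was in all 6 lists, with a Mef2c/p300 score of 235, an N1/p300 score of 617, and scores of 626 in Mef2c/MAML, 609 in N1/MAML, 590 in N1/RBP and 487 in N1/N1. It overlapped the total FAIRE region from 81416375 to 81417257 (MACS score 155.99), and an N1 ChIP region with the same ends had a deposited ChIP to input ratio of 15.7. None of the 23 members overlapped a FAIRE or ChIP region (0 of 23, exact Clopper-Pearson 95% interval up to 14.8%, or up to 13.0% by a limit of 3 counts). Of all marked fragments, 19.3% overlapped total FAIRE, 2.8% Notch-dependent FAIRE and 1.41% N1 ChIP. The 23 are neighbours in 1 stretch and not independent. Their limits therefore understate the uncertainty, and no difference from these shares is read.

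**Figure D2:**
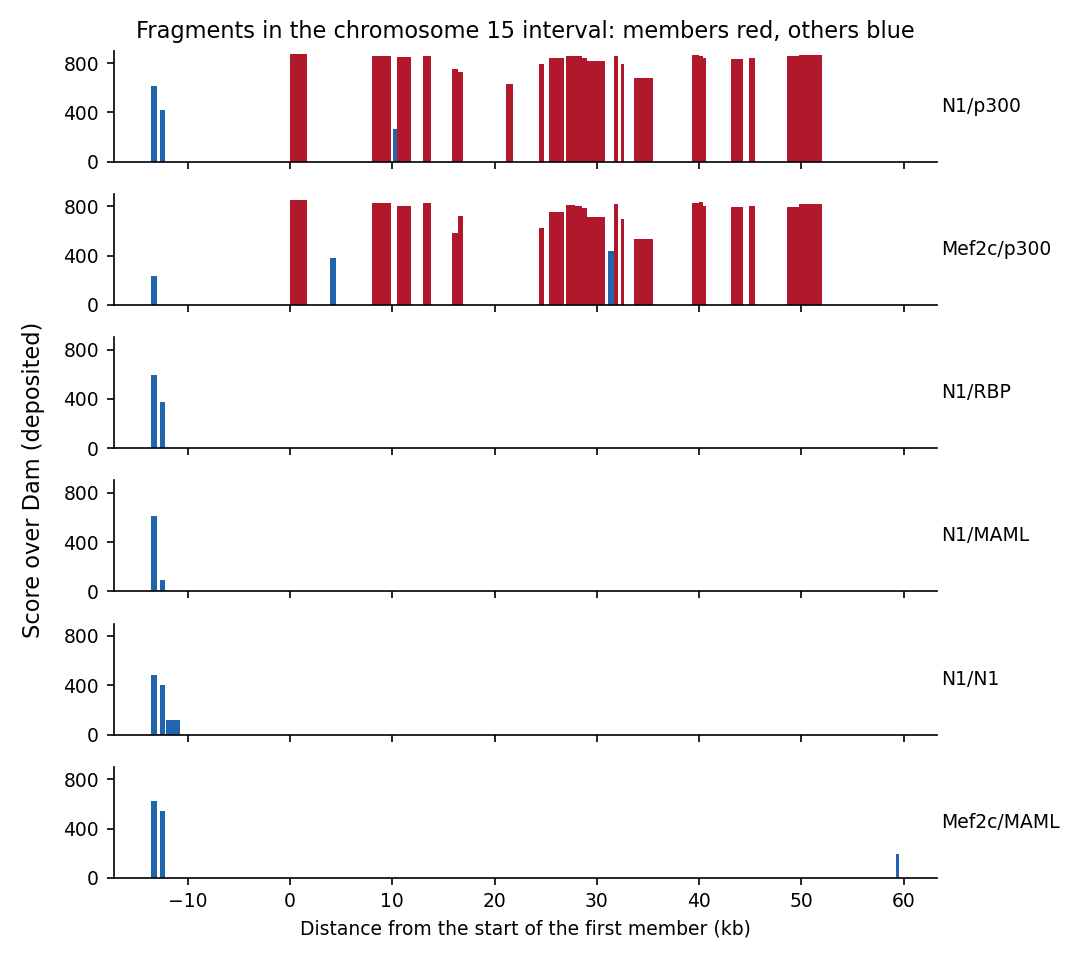
Deposited scores over Dam of all 30 fragments in the chromosome 15 interval, 1 panel per complex, against the distance in kb from the start of the first member; bar width is fragment length. Red bars (23 members) fill the N1/p300 and Mef2c/p300 panels over 52.0 kb, where the 4 other panels are empty, and blue bars (other fragments) stand upstream in all panels.

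The 329 members outside the interval were dispersed. Windows of 100 kb held 1 member in 313 cases and 2 in 8 cases, and 2 of the 329 abutted each other. That pair lay on the X chromosome, from 100347084 to 100347609 and from 100347610 to 100348282, with N1/p300 scores of 280 and 347 and Mef2c/p300 scores of 311 and 377. The other windows with 2 members were on chromosomes 6, 7, 8, 13 and 16 and at 2 places on chromosome 15. Per 1000 marked fragments, members numbered from 2.1 on chromosome 7 to 5.75 on chromosome 16. Their median N1/p300 score was 244 and their median Mef2c/p300 score 286, so that 33.1% reached the median of the first list and 50.8% that of the second.

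The leading members outside the interval had scores in the upper part of both lists. Chromosome 8 from 117850924 to 117851681 had an N1/p300 score of 586 and a Mef2c/p300 score of 606 (percentiles 90.4 and 98.3 of the lists). Chromosome 3 from 113655369 to 113655967 scored 554 and 647, and chromosome 16 from 50580039 to 50581135 scored 551 and 591. None of these 3 lay in open chromatin. Chromosome 10 from 98544021 to 98544644, with 524 and 563, overlapped a total FAIRE region with a MACS score of 106.55. The next 6 had N1/p300 scores from 409 to 572 and Mef2c/p300 scores from 483 to 638, and 2 of them overlapped total FAIRE.

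Members were of ordinary length for fragments of the p300 lists. Their median length was 652.5 bp, against 596 bp for fragments in N1/p300 alone, 674 bp for those in Mef2c/p300 alone and 596 bp for all 96405. Fragments held by the MAML lists only (N1/MAML and Mef2c/MAML and no other, 1224 fragments) were shorter, with a median of 355 bp.

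Absence from the 4 other lists did not mean that none of their fragments lay close by. Outside the interval 40 of 329 abutted such a fragment, 129 (39.2%) had one within 1000 bp and 252 (76.6%) within 10000 bp. Within 1000 bp a fragment of Mef2c/MAML (50380 fragments in all) lay near 99 members, one of N1/N1 (31936) near 68, one of N1/RBP (28281) near 56 and one of N1/MAML (16545) near 39, which is also the order of the lists by size. A fragment in all 4 N1 lists lay within 1000 bp of 19 members. The remaining 77 members were more than 10 kb from every fragment of the absent lists. No test was made of these counts, since the same libraries chose the members. Matching shares for other fragments were not computed, so closeness is not read as a trait of the members.

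Open chromatin was read from the FAIRE lists of N1wt cells, which the choice of members did not use. Of the 352 members, 32 overlapped a total FAIRE region by at least 1 bp, 9.09% (exact Clopper-Pearson 95% interval 6.3 to 12.6%), against a background of 19.3% of all marked fragments. Without the chromosome 15 interval the share was 32 of 329, 9.73% (6.75 to 13.5%). It was 5.4% (19 of 352) by overlap of at least 50% of the smaller region and also by fragment centre, and 16.8% (182 of 1082) with fragments of exactly 1 other list added. Fragments held by the MAML lists only lay in open chromatin more often, 386 of 1224 (31.5%). The share of members minus theirs was -22.4 ± 2.21 points (SE clustered over blocks of 5 Mb; linear model across all fragments, n = 538 blocks, adjusted p = 1.74e-23), and -21.8 points without the interval. Among fragments of 405 to 786 bp the difference was -10.0 points (n = 534 blocks, adjusted p = 0.0022), while with log2 length as a covariate it was -21.4 points (n = 538 blocks, adjusted p = 4.14e-22). Of the 16233 other fragments found in exactly 2 lists 19.9% were open, and members differed from them by -10.8 ± 1.67 points (n = 538 blocks, adjusted p = 2.2e-10). In the same length range that difference was -4.21 points and no longer passed (n = 534 blocks, adjusted p = 0.0501), and with length as a covariate it was -10.8 points (n = 538 blocks, adjusted p = 1.56e-10).

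Set against fragments with 1 p300 complex alone, members were open more often than Mef2c/p300 alone, while no difference from N1/p300 alone was called. Among the 11782 fragments in Mef2c/p300 alone 2.89% were open by total FAIRE, and members were 6.2 ± 1.62 points above them (n = 538 blocks, adjusted p = 0.000249). Without the interval this was 6.83 points. Open fragments were 11.2% of the 4116 fragments in N1/p300 alone, and the difference of members from these was -2.06 ± 1.65 points, with a 95% interval from -5.29 to 1.16 (n = 538 blocks, adjusted p = 0.281). Among members at or above the median score of both lists, the difference from Mef2c/p300 alone was 5.57 points with 7 of 88 members open and did not pass (n = 528 blocks, adjusted p = 0.15). Members of the chromosome 15 interval, of which 0 were open, made up 22 of these 88. The score alternative was not run without the interval. These p-values measure spread between blocks of the genome and not between libraries. Mef2c/p300 comes from 1 library and N1/p300 from 3, and both FAIRE lists from N1wt cells, so differences of library and of complex cannot be told apart.

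**Figure D3:**
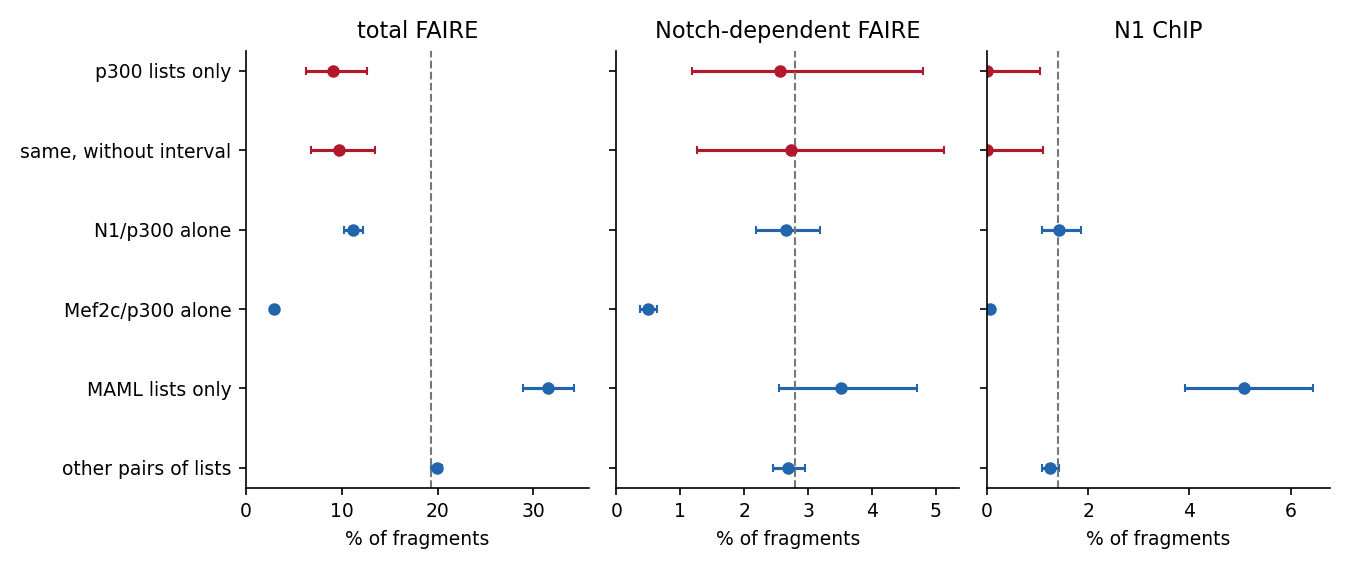
Percentage of fragments that overlap total FAIRE, Notch-dependent FAIRE and N1 ChIP regions, with exact 95% intervals; red points are the fragments in the p300 lists only, with and without the chromosome 15 interval, blue points the other classes, and dashed lines the shares of all 96405 fragments (19.3, 2.8 and 1.41%). In total FAIRE the red points (9.09 and 9.73%) lie under the dashed line and between Mef2c/p300 alone (2.89%) and the MAML lists only (31.5%).

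Open members were not concentrated among the higher scores. When the 329 members outside the interval were split by the mean rank of both scores into 3 groups, 10 of 110 in the lowest overlapped total FAIRE (9.09%, exact interval 4.45 to 16.1%), 12 of 109 in the middle (11.0%, 5.82 to 18.4%) and 10 of 110 in the highest (9.09%, 4.45 to 16.1%). The intervals overlap almost wholly and the trend was not tested. The 32 open members lay in 32 different FAIRE regions, with MACS scores from 57.6 to 496.32 and a median of 149.3, close to the median of 156.7 over all total FAIRE regions. The highest, 496.32, belonged to a region on chromosome 3 whose member, 30920208 to 30920802, had low scores of 12 and 84. Of the 32, 18 had a fragment of an absent list within 1000 bp, as did 111 of the 320 members outside open chromatin. With such members and comparable fragments left out, 14 of 223 members (6.28%) were open. These 223 still hold the 23 members of the chromosome 15 interval, of which 0 were open.

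Beyond direct overlap, members lay at a median of 17.4 kb from the nearest total FAIRE region outside the interval, and 133 of 329 (40.4%) had one within 10000 bp. Shares within the same distance were 35.5% for N1/p300 alone, 28.3% for Mef2c/p300 alone and 58.8% for the MAML lists only, whose median distance was 3.48 kb. These distances are given without a test.

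**Figure D4:**
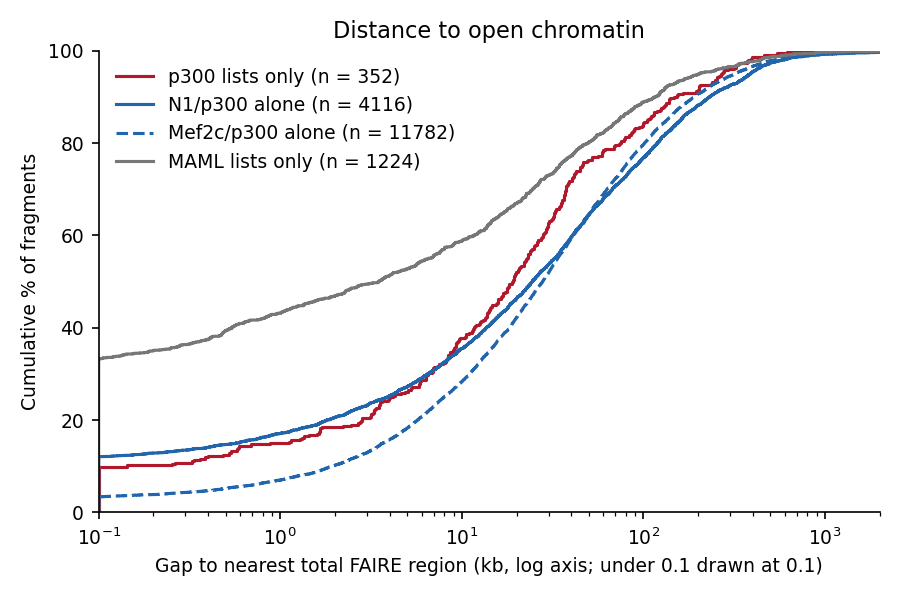
Cumulative percentage of fragments (vertical axis) by their gap to the nearest total FAIRE region in kb (log axis, gaps under 0.1 kb drawn at 0.1); the red line is the 352 fragments in the p300 lists only, blue lines the fragments in 1 p300 list alone and grey the MAML lists only. The red line starts between the blue lines and lies below the grey line over most of the range; the grey median gap of 3.48 kb compares with 19.1 kb for the red.

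Notch-dependent FAIRE regions, a separate deposited list whose selection the sources do not state, held 9 of the 352 members, 2.56% (exact interval 1.18 to 4.8%), near the background of 2.8% of all fragments. Without the interval it was 9 of 329, 2.74%. The difference from N1/p300 alone was -0.0914 points with a 95% interval from -1.85 to 1.66 (n = 538 blocks, adjusted p = 0.919). From the MAML lists only it was -0.956 points, from -2.95 to 1.04, and from other pairs -0.135 points, from -1.82 to 1.54, with adjusted p-values of 0.416 and 0.919. Members exceeded Mef2c/p300 alone, of which 0.492% overlapped, by 2.06 ± 0.859 points (n = 538 blocks, adjusted p = 0.0243). That call was lost in 5 of 11 alternatives, with adjusted p-values up to 0.557, among them overlap of at least 50% of the smaller region (1.44 points, n = 538 blocks, adjusted p = 0.0599). All 9 were also in total FAIRE, so 28.1% of the 32 open members were Notch-dependent (exact interval 13.7 to 46.7%). Among all marked fragments, 90 were in a Notch-dependent region but in no total FAIRE region. The shares for comparison are therefore of fragments in either FAIRE list. They were 23.2% for N1/p300 alone, 16.9% for Mef2c/p300 alone, 11.1% for the MAML lists only, 13.5% for other pairs and 14.4% for all such fragments. The interval of the members holds these values except 11.1 and 13.5%, and the differences were not tested.

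The 9 Notch-dependent members differed widely in score. On chromosome 5, 106049673 to 106050054 scored 473 for N1/p300 and 509 for Mef2c/p300, and lay inside a FAIRE region from 106049467 to 106050109 with a MACS score of 93.81. It was 127 bp from a fragment in all 4 N1 lists. On chromosome 3, 144643915 to 144644435 scored 257 and 526 and was 6 bp from such a fragment. The rest of the 9 were much farther from one, at 19496 to 1628667 bp. On chromosome 10, 27707784 to 27708355 scored 474 and 19, and 60396957 to 60397483 scored 457 and 19, so that both were strong for N1/p300 and near the floor for Mef2c/p300. The first of these lay in the Notch-dependent region with the highest MACS score among the 9, 245.91. On chromosome 16, 8790605 to 8791012 scored 401 and 267. On chromosome 11, 53313959 to 53314592 scored 225 and 357, and on chromosome 1, 189564031 to 189564468 scored 360 and 165. The lowest N1/p300 scores of the set were those of 167092884 to 167093939 on chromosome 2, 77 beside a Mef2c/p300 score of 216, and of 64207476 to 64207839 on chromosome 13, 73 beside 193.

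No member overlapped an N1 ChIP region, against a background of 1.41% of all fragments. The name of the ChIP list refers to a ratio to input and to repeat masking. Lack of overlap therefore means that no listed region was met, not that N1 signal was absent. A count of 0 of 352 has an exact 95% interval up to 1.04%, and 0 of 329 outside the chromosome 15 interval one up to 1.11%; by a limit of 3 counts these shares are up to 0.852 and 0.912%. ChIP regions overlapped 62 of 1224 fragments in the MAML lists only (5.07%, exact interval 3.91 to 6.45%), 59 of 4116 in N1/p300 alone (1.43%, 1.09 to 1.85%) and 202 of 16233 in other pairs (1.24%, 1.08 to 1.43%). The interval of the MAML lists only lies above that of the members. Those of N1/p300 alone and of other pairs lie just above 1.04% but overlap the interval of the 329 members. In Mef2c/p300 alone the share was 7 of 11782 (0.0594%, 0.0239 to 0.122%), which lies within the interval of the members, so a difference from this class was not detectable at this number of members. Differences of the fitted model for ChIP carry no spread from the members, since all of them are 0, and are not read here. A ChIP region lay within 1000 bp of 8 members (2.27%) and within 10000 bp of 61 (17.3%). Shares within 10000 bp were 34.6% for the MAML lists only, 27.3% for other pairs and 20.3% for N1/p300 alone. For Mef2c/p300 alone the share was 15.6%. Members were thus under each class but Mef2c/p300 alone, and the same held within 1000 bp. These shares are given without a test. Restricting ChIP to regions of 300 bp or more also gave 0.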

How the data were processed

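Region lists for the whole series were used, in build mm9 per the submitters' processing notes. For each complex the authors deposited fragments with a score over Dam, kept from a confidence level of 0.999 up, per the file headers. Lists were matched to complexes by the initials of both proteins. FAIRE peaks carry a score from MACS in Galaxy, per the file headers. The deposited ChIP table gives a signal for ChIP and for input and their ratio. Its name refers to that ratio and to repeat masking, and how its regions were selected is not described here. Aligner and caller: not given in the sources used here.

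Positions are 1-based and inclusive; FAIRE starts were raised by 1 base. Overlap of 1 bp or more counted. Shares carry exact Clopper-Pearson 95% intervals, which cover counting error only and treat fragments as independent. Differences in share came from a least-squares model of the 0/1 overlap across all 96405 fragments with class as a factor, standard errors clustered over 5 Mb blocks (numpy 2.4.6, scipy 1.17.1), two-sided, Benjamini-Hochberg adjusted over 12 differences, with a threshold of 0.05. The 12 include the ChIP differences, which are not read and whose small p-values lower some of the other adjusted p-values. Overlap and model were tested on simulated data. Classes, named regions (leading mean score rank, Notch-dependent overlap, the chromosome 15 interval, lowest scores) and lists were chosen with earlier results of these data known; members outside the interval that are named by rank, the abutting pair on the X chromosome and the open member with the highest MACS score were added after their values were seen. Fragment sequences and gene annotation were not used here, since no mm9 reference was at hand.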

Additional observations from a re-analysis of the deposited data

How the results depend on the processing

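No paired analysis was possible because each deposited list pools the libraries of its group, and for the same reason no replicate could be left out. The number of members was 88 with both scores at or above the list medians, 223 with no fragment of an absent list within 1000 bp, and 1082 with the fragments of exactly 1 other list added, an alternative chosen after seeing the data. The share in total FAIRE was then 6.28% of the 223, which include the 23 interval members, and 16.8% of the 1082. It was 5.4% by overlap of 50% of the smaller region and also 5.4% by fragment centre. The share in Notch-dependent FAIRE was 1.14% (1 of 88) at the higher scores. Of these 88, 22 lay in the chromosome 15 interval, where 0 members overlapped a FAIRE region.

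In total FAIRE, members stayed below the MAML lists only in all 11 alternatives (-23.0 to -10.0 points, largest adjusted p = 0.0022, n = 534 blocks). The difference from Mef2c/p300 alone ran from 3.94 to 7.82 points and failed at the higher scores (5.57, n = 528 blocks, adjusted p = 0.15). That from other pairs failed in the length range of 405 to 786 bp (-4.21, n = 534 blocks, adjusted p = 0.0501). That from N1/p300 alone turned to 0.384 points in this range and to 0.346 without neighbours of absent lists, and passed in none.

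In Notch-dependent FAIRE the difference from Mef2c/p300 alone did not pass by 50% overlap (1.44), by centre (1.48), in the length range (2.02), at the higher scores (0.689) or without neighbours (1.11). The differences that had not passed also changed sign: from N1/p300 alone to 0.0282 by centre, 0.0867 without the chromosome 15 interval, 0.0532 in the length range and 0.0535 with gaps up to 500 bp merged; from other pairs to 0.0166 by 50% overlap, 0.226 by centre, 0.0435 without the interval and 0.479 in the length range; from the MAML lists only to 0.75 in the length range. The ChIP difference from Mef2c/p300 alone, which is not read because members have no spread, was -0.0639 at the higher scores. Fewer members enter the score, length and neighbour alternatives. The length range also leaves out fragments of the classes compared with them. In the MAML lists only, the upper quartile of length was 408 bp, near the lower end of that range. What caused the changes was not tested.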
